A study of Mus musculus with 69 samples.

Results

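The contrast set RNA from the nucleus accumbens of male mice with standard rearing and a vector for Dot1l overexpression against RNA from male mice with early life stress (ELS) and a vector for GFP, the green fluorescent protein used as control. Libraries were taken by their labels: 8 of Standard Dot1l overexpression and 8 of ELS GFP, together 16 of the 32 RNA libraries among the 69 samples of the series. The other RNA groups were Standard GFP, which combines the standard rearing of one side with the GFP vector of the other, and ELS Dot1l knockdown. RNA came from whole tissue, so every cell type contributed, and all groups here were male and carried a vector. Rearing and vector differed together between the 2 groups compared and cannot be told apart in this contrast. The labels give no age, vector type or promoter, and do not say whether each library is a separate animal, so the p-values measure the spread between these samples, which may be technical. Of 52636 genes in the deposited table, 14016 had enough counts to be tested.

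DOT1L is the methyltransferase that places methyl groups on lysine 79 of histone H3 (H3K79), a mark of the bodies of transcribed genes, and it works beside the complexes that drive transcriptional elongation. The nucleus accumbens is the ventral part of the striatum and takes part in reward and motivation. Most of its neurons are GABAergic medium spiny neurons, which carry either dopamine receptor D1 or dopamine receptor D2, and they sit among interneurons, astrocytes, oligodendrocytes, microglia and vessels. The series asks how ELS acts on H3K79 methylation and on gene expression in these neurons, and the contrast shows how far a standard-reared animal with the Dot1l vector had the RNA profile of a stressed animal.

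No gene separated the groups past the threshold. At a Benjamini-Hochberg adjusted p under 0.05 in edgeR's quasi-likelihood test, 0 of 14016 genes (0%) were called, and the smallest adjusted p was 0.328. DESeq2 called 2 genes, which are described further below. At an unadjusted p under 0.05, 578 genes (4.12%) were higher with overexpression and 358 (2.55%) were lower. In no gene (0%) did all libraries of one group lie above all libraries of the other. The median log2 fold change over all genes tested was 0.03, and 53.2% of genes had an estimate above 0. The lack of calls does not show that the groups were alike: the median standard error (SE) of a log2 fold change was 0.4. The 95% interval stayed within a change of 1 on the log2 scale, in either direction, for 5967 genes (42.6%).

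The libraries held 2.48 to 7.88 M counts with overexpression and 1.76 to 11.1 M in ELS GFP, with medians of 5.36 M and 6.48 M. A few libraries carried much of the contrast. In 268 of the 578 genes with a small unadjusted p and a higher level (46.4%), a single overexpression library held over 50% of its group's summed level, against 7.17% among all genes with a positive estimate. On the lower side the same held for a single ELS GFP library in 211 of 358 genes (58.9%), against 7.25%. Overexpression replicate 1 was that library for 222 genes, ELS GFP replicate 2 for 209 and overexpression replicate 2 for 40. Replicate 1 had the lowest scaling factor of its group (0.53), and the other 2 had the fewest counts of theirs (1.76 M in ELS GFP and 2.48 M in overexpression). These 3 libraries are the only ones of the 2 groups whose titles carry the number 2. The labels do not say what that number marks. Of the 128 genes followed, 93 changed sign or moved by over 1.5 times when a single library of the 2 groups was left out, and 70 without these 3 libraries together. Such values are given below beside many of the genes and lists, and a gene given without one is not thereby shown to be stable. Overexpression replicate 8 was the highest of its group for medium spiny neuron genes and replicate 4 for glucocorticoid-induced genes. Whether tissue dissection, RNA quality or another cause set these libraries apart was not tested.

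The targeted gene overlapped widely between the groups. Dot1l lay between 25.2 and 75 CPM (counts scaled to the effective depth of each library), with a median of 37.7, in the overexpression libraries. In ELS GFP it lay between 15.4 and 54.2 CPM, with a median of 35. Overexpression libraries lay above the ELS GFP median in 4 cases and below it in the other 4. The log2 fold change was 0.28 (SE 0.27, 95% interval -0.26 to 0.82, adjusted p = 1), and it was 0.11 without overexpression replicate 4 and 0.16 without ELS GFP replicate 3. Against Standard GFP, where Dot1l had a median of 36.3 CPM, the estimate was 0.33 (adjusted p = 0.741). The labelled overexpression was thus not visible as a group difference in whole tissue RNA. A vector reaching few cells cannot be told apart from one that adds little RNA per cell or from vector RNA that the counting did not assign to Dot1l. Kdm2b, a histone demethylase, had medians of 23.3 CPM with overexpression and 24.5 CPM in ELS GFP, and its estimate of -0.19 (SE 0.30) turned to 0.04 without the 3 dominating libraries.

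Genes that work with DOT1L showed no common direction. Of 15 tested genes for DOT1L, its partners and elongation factors, 10 had a positive estimate, none was called, and the median was 0.03, as over all genes. Cdk9, the kinase of the elongation factor P-TEFb, had an estimate of 0.53 (SE 0.32), which was 0.13 without overexpression replicate 1. Mllt10, whose protein binds DOT1L, had 0.35 (SE 0.20), but -0.02 without the 3 dominating libraries. Ccnt2, a cyclin partner of CDK9, had 0.27 (SE 0.22), and Ell2, an elongation factor, -0.35 (SE 0.30). For 13 of these 15 genes the 95% interval stayed within a log2 change of 1.

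**Figure D1:**
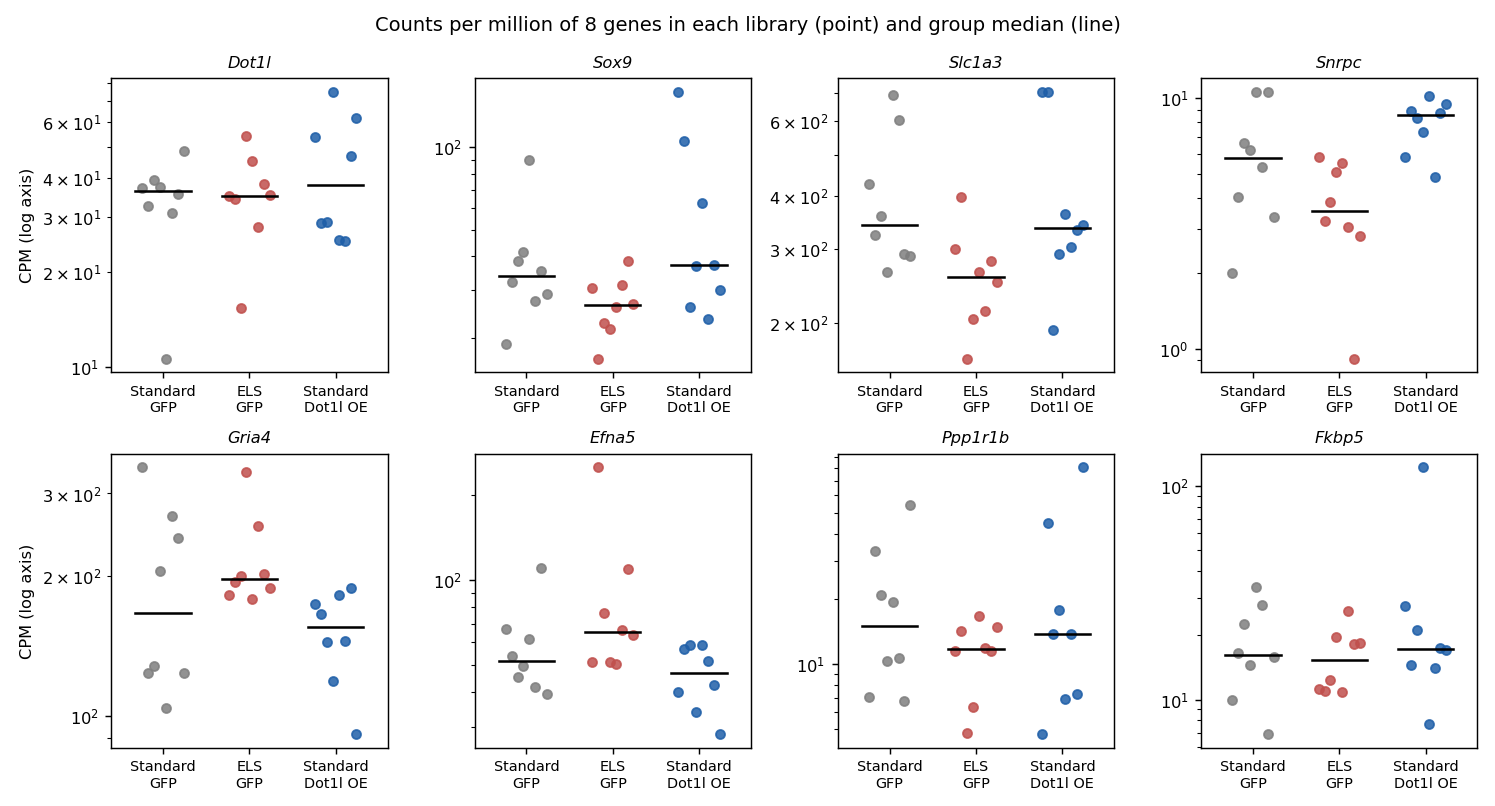
CPM, counts scaled to library depth (log axis), of 8 genes in each library of Standard GFP, ELS GFP and Standard Dot1l overexpression, with 8 points per group and a line at the group median. Every gene overlaps between ELS GFP and overexpression; Snrpc comes closest to separating them, with all 8 overexpression libraries above the ELS GFP median of 3.54 CPM, and single high libraries stand out in Sox9, Efna5, Ppp1r1b and Fkbp5.

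Astrocyte genes pointed one way. All 10 tested markers had a positive estimate, with a median log2 fold change of 0.43 against 0.03 over all genes, and none was called. The mean log2 CPM of the list ran from 4.93 to 5.66, with a median of 5.31, in ELS GFP. It ran from 5.31 to 6.32, with a median of 5.70, in the overexpression libraries. The groups overlapped, and 7 of 8 overexpression libraries lay above the ELS GFP median. Summed over the list, levels were 1130 to 2620 CPM in ELS GFP and 1580 to 3640 CPM with overexpression. All 10 markers also had a positive estimate without the 3 dominating libraries (median 0.34), without overexpression replicate 8 (0.46) and with surrogate variables in the fit (0.43). Markers of a list were measured in the same libraries and are not independent of each other, and these fits share most libraries. Gfap, a further marker of the list, is listed at 0 in every library and bears on nothing here. In tissue RNA, fewer cells of a type and less RNA per cell cannot be told apart.

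Sox9, the transcription factor of the astrocyte lineage, had the smallest unadjusted p of the list. It lay between 16.8 and 38.2 CPM, with a median of 26.4, in ELS GFP and between 23.5 and 160 CPM, with a median of 37, with overexpression. Overexpression replicates 1, 2 and 5 lay above every ELS GFP library, at 160, 106 and 62.4 CPM, and the remaining libraries lay within the ELS GFP range. Its log2 fold change of 1.16 (SE 0.32, unadjusted p = 0.000773, adjusted p = 0.329) was 0.35 without the 3 dominating libraries. Slc1a3, the glutamate transporter GLAST, ran from 165 to 397 CPM, median 257, in ELS GFP. It ran from 193 to 704 CPM, median 337, with overexpression, and 7 of 8 libraries were above the ELS GFP median. Its estimate was 0.64 (SE 0.24, adjusted p = 0.459), and 0.34 without the 3 dominating libraries. Aldh1l1, a folate enzyme used as an astrocyte marker, had 0.56 (SE 0.29), which was 0.30 without those libraries and 0.36 without overexpression replicate 2 alone, and Aldoc, an aldolase of astrocytes, 0.39 (SE 0.24). Gja1, the gap junction protein connexin 43, had medians of 34.9 CPM in ELS GFP and 45.2 CPM with overexpression. Its estimate was 0.42 (SE 0.26), and it kept between 0.34 and 0.48 in the fits without each doubted library.

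Against Standard GFP the 2 groups stood differently for astrocyte genes, though both contrasts use the same Standard GFP libraries. ELS GFP had lower estimates in 10 of 10 markers, with a median of -0.60. Overexpression had lower estimates in 7 of 10, with a median of -0.09. Slc1a3 showed the same order, at -0.65 in ELS GFP and -0.01 with overexpression. In Standard GFP 3 libraries held under 1 M counts, and without them the list medians were -0.51 and -0.04.

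Microglia, the immune cells of the brain, followed at a similar size but with wider spread. Of 11 tested markers, 10 had a positive estimate, with a median of 0.44 and none called. The list ran from 3.91 to 6.26 mean log2 CPM in ELS GFP and from 4.38 to 6.69 with overexpression, and the groups overlapped. Summed levels were 752 to 1940 CPM and 766 to 2410 CPM. The complement gene C1qb ran from 8.39 to 115 CPM, median 49.8, in ELS GFP and from 27 to 165 CPM, median 89.7, with overexpression. Its log2 fold change was 0.72 (SE 0.46). Tmem119, a membrane protein of resident microglia, had 0.98 (SE 0.66) and the growth factor receptor gene Csf1r 0.67 (SE 0.47). Aif1 was the marker with a negative estimate, at -0.27 (SE 0.37). Cx3cr1 had 0.30 (SE 0.48), with medians of 42.8 CPM in ELS GFP and 40.6 CPM with overexpression. None of the 11 genes had an interval narrow enough to stay within a log2 change of 1. The list median was 0.15 with surrogate variables and 0.63 without the 3 dominating libraries. P2ry12 and Itgam are listed at 0 in every library. Against Standard GFP the microglia medians were -0.65 in ELS GFP and -0.30 with overexpression, with lower estimates in 10 and 7 of 11 markers. Per library the picture differed. The median score was 5.57 in Standard GFP, 5.28 in ELS GFP and 5.69 with overexpression, and 4 of 8 overexpression libraries lay below the Standard GFP median.

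**Figure D2:**
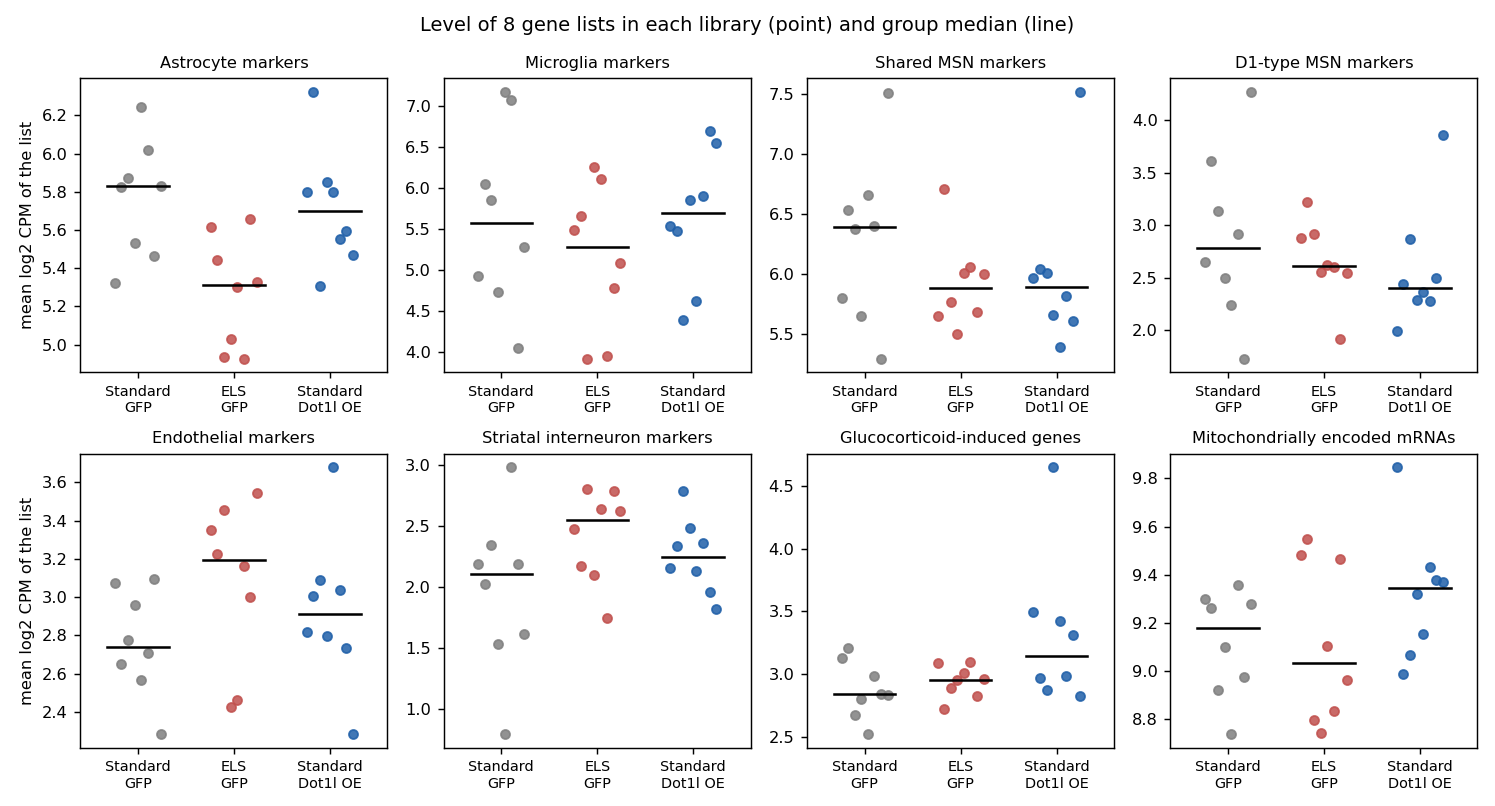
Mean log2 CPM of 8 gene lists in each library, by group, with a line at the group median; MSN stands for medium spiny neuron. For astrocyte genes 7 of 8 overexpression libraries lie above the ELS GFP median. Shared medium spiny neuron genes have nearly equal medians (5.88 and 5.89), with 1 overexpression library far above at 7.52. Every list overlaps between the 2 groups.

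Medium spiny neuron genes had nearly equal group medians. The 16 markers shared by both neuron classes ran from 5.50 to 6.71 mean log2 CPM in ELS GFP, with a median of 5.88. With overexpression they ran from 5.39 to 7.52, with a median of 5.89. Replicate 8 gave the upper value and the next library lay at 6.04. The fit gave positive estimates in 13 of 16 genes with a median of 0.21, but in 4 of 16 with a median of -0.15 without replicate 8. Standard GFP had a median of 6.39, above both groups. Against it the medians were -0.63 for ELS GFP and -0.27 for overexpression, and -0.32 and -0.08 without Standard GFP replicate 8, which was likewise high at 7.50. No test was run on the list scores, so nearly equal medians do not show that the overexpression and ELS GFP libraries were alike on these markers.

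Single medium spiny neuron genes likewise depended on 1 library. Ppp1r1b, which encodes the dopamine-regulated phosphatase inhibitor DARPP-32, ran from 4.78 to 16.7 CPM, median 11.7, in ELS GFP. It ran from 4.73 to 80.7 CPM, median 13.7, with overexpression. Its log2 fold change of 1.05 (SE 0.50, adjusted p = 0.715) was 0.43 without replicate 8. Rgs9, a regulator of G protein signalling in striatum, had 0.81 (SE 0.42) and 0.40 without that library. Scn4b, a sodium channel subunit, had 0.84 (SE 0.47) and 0.09 without it. Pde10a, the striatal phosphodiesterase, had medians of 331 and 324 CPM in ELS GFP and overexpression. Its estimate was 0.37 (SE 0.28), and 0.11 without replicate 8. Ptpn5, which encodes the striatal phosphatase STEP, went the other way at -0.72 (SE 0.39). That value rested on ELS GFP replicate 2 at 325 CPM, against a group median of 51.7 CPM, and was -0.02 without it.

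Neither class of medium spiny neuron stood apart from ELS GFP. Of 8 tested D1-type markers 4 had a positive estimate (median -0.09), and of 6 D2-type markers 2 did (median -0.11). Without overexpression replicate 8 these became 1 of 8 (-0.42) and 0 of 6 (-0.22), and without ELS GFP replicate 2 the D2-type list had 4 of 6 (0.30). Drd1, the D1 receptor gene, ran from 0.183 to 7.75 CPM, median 4.23, in ELS GFP and from 3.19 to 39.3 CPM, median 4.92, with overexpression. Its estimate of 1.32 (SE 0.70) was 0.40 without replicate 8. Tac1, the substance P precursor of D1 neurons, had medians of 3.21 and 2.59 CPM and an estimate of -0.20 (SE 0.63). Pdyn, the dynorphin precursor, had medians of 5.81 and 5.60 CPM and an estimate of 0.03 (SE 0.60), with -0.61 without replicate 8. Sfxn1, Eya1 and Ebf1, further markers of D1 neurons, had -0.48 (SE 0.37), -0.35 (SE 0.28) and -0.32 (SE 0.31). Sfxn1 was -0.17 without ELS GFP replicate 2 and -0.08 without the 3 dominating libraries, Eya1 was -0.21 without ELS GFP replicate 7, and Ebf1 was -0.20 without overexpression replicate 4. Drd1 and Tac1 had few counts in both groups, and the SEs of their estimates were among the wide ones of the list.

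The D2 side showed how 1 library can set a sign. Drd2, the D2 receptor gene, ran from 29.9 to 630 CPM, median 58.9, in ELS GFP, where replicate 2 held the 630. It ran from 10.5 to 273 CPM, median 54.3, with overexpression, where replicate 8 held the 273. The estimate was -0.61 (SE 0.58), 0.57 without the former and -1.18 without the latter. Penk, the enkephalin precursor, had medians of 53.4 and 62.1 CPM, with an estimate of 0.34 (SE 0.53) that was -0.35 without replicate 8. Standard GFP had a Penk median of 194 CPM, with libraries from 26.2 to 467 CPM. Relative to it Penk was estimated at -1.49 in ELS GFP (adjusted p = 0.218) and -1.14 with overexpression (adjusted p = 0.42). Adora2a, an adenosine receptor gene of these neurons, had medians of 5.71 and 5.40 CPM and an estimate of 0.62 (SE 0.59), or -0.16 without replicate 8. Sp9, a transcription factor of D2 neurons, had -0.33 (SE 0.29), and -0.11 without ELS GFP replicate 7.

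Oligodendrocyte and myelin genes gave no common direction. Of 15 tested markers 10 had a positive estimate, with a median of 0.06, and without overexpression replicate 8 it was 5 of 15 with -0.08. Mbp, myelin basic protein, had medians of 186 CPM in ELS GFP and 181 CPM with overexpression, with an estimate of -0.19 (SE 0.28) that was 0.03 without ELS GFP replicate 2. Ugt8a, an enzyme of myelin lipid synthesis, had -0.91 (SE 0.44, adjusted p = 0.727) and -0.06 without that library. Aspa, aspartoacylase, had -0.57 (SE 0.41), Fa2h, which hydroxylates myelin fatty acids, 0.49 (SE 0.46) and Mal, a myelin proteolipid, 0.29 (SE 0.30). Fa2h was 0.15 and Mal 0.05 without overexpression replicate 8. Both groups lay below Standard GFP in estimate, in 14 of 15 genes in ELS GFP (median -0.59) and 15 of 15 with overexpression (median -0.47).

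Precursors of oligodendrocytes had 1 positive estimate in 7 tested markers, with a median of -0.22 that was -0.01 without ELS GFP replicate 2. Olig1, the lineage transcription factor, had -1.71 (SE 0.67), yet its medians were 7.56 CPM in ELS GFP and 6.85 CPM with overexpression. ELS GFP replicate 2 reached 218 CPM, and the estimate was 0.39 without it. Pdgfra, the growth factor receptor of precursors, was the exception to the list with 0.43 (SE 0.35), or 0.26 without overexpression replicate 5. Neu4, a sialidase, and Cspg4, the NG2 proteoglycan, had -1.0 (SE 0.89) and -0.35 (SE 0.40), and -0.63 and -0.15 without ELS GFP replicate 7.

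Endothelial and interneuron markers had mostly negative estimates. Of 9 endothelial markers 6 had a negative estimate, with a median of -0.35, and 1 of 8 overexpression libraries lay above the ELS GFP median of the list. Scores ran from 2.42 to 3.54 mean log2 CPM in ELS GFP, median 3.19, and from 2.28 to 3.68, median 2.91, with overexpression. Flt1, a VEGF receptor, had medians of 63.5 CPM in ELS GFP and 38.1 CPM with overexpression, and 7 of 8 overexpression libraries lay below the ELS GFP median. Its log2 fold change was -0.44 (SE 0.27), and -0.27 without the 3 dominating libraries. Pecam1, an adhesion molecule, had -0.43 (SE 0.38), the transporter gene Slco1a4 -0.37 (SE 0.36) and the angiopoietin receptor gene Tek -0.35 (SE 0.35). Pecam1 was -0.25 without ELS GFP replicate 2, Slco1a4 -0.22 without ELS GFP replicate 6 and Tek -0.19 without ELS GFP replicate 3. The 3 markers with a positive estimate were Cldn5 at 0.281 (SE 0.575), Kdr at 0.196 (SE 0.451) and Ly6c1 at 0.039 (SE 0.64). The median of the list stayed between -0.45 and -0.18 when each library was left out. Against Standard GFP it was 0.29 in ELS GFP and -0.02 with overexpression, and 0.62 and 0.37 without the 3 shallow Standard GFP libraries.

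Interneuron markers had 10 negative estimates among 11 tested genes, with a median of -0.15. The largest were in genes with few counts: Vip, vasoactive intestinal peptide, had medians of 1.61 and 1.11 CPM and an estimate of -1.06 (SE 0.78), which was -0.34 without ELS GFP replicate 6. Th, tyrosine hydroxylase, had medians of 1.91 and 1.22 CPM and -0.78 (SE 0.74). Cck, cholecystokinin, had -0.38 (SE 0.56) and the receptor kinase gene Kit -0.15 (SE 0.31).

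Markers of glutamatergic neurons, which belong to neighbouring cortex and not to the accumbens, were present in both groups. Slc17a7, the vesicular glutamate transporter VGLUT1, had medians of 128 CPM in ELS GFP and 138 CPM with overexpression. Its estimate of 0.40 (SE 0.27) was 0.06 without overexpression replicate 1, which held 368 CPM. Neurod6, a cortical transcription factor, had 1.20 (SE 0.63) and -0.07 without the same library. Emx1, a factor of cortical projection neurons, had 0.40 (SE 0.72), and 0.03 without overexpression replicate 4. Summed over the 7 markers, levels ran from 86.4 to 276 CPM in ELS GFP and from 92.5 to 501 CPM with overexpression. The part of such tissue in other differences was not tested. Pericyte genes (2 of 4 positive, median 0.01), choroid plexus and ependyma genes (2 of 3, median 0.46) and blood genes (2 of 3, median 0.43) had too few tested members to describe further.

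**Figure D3:**
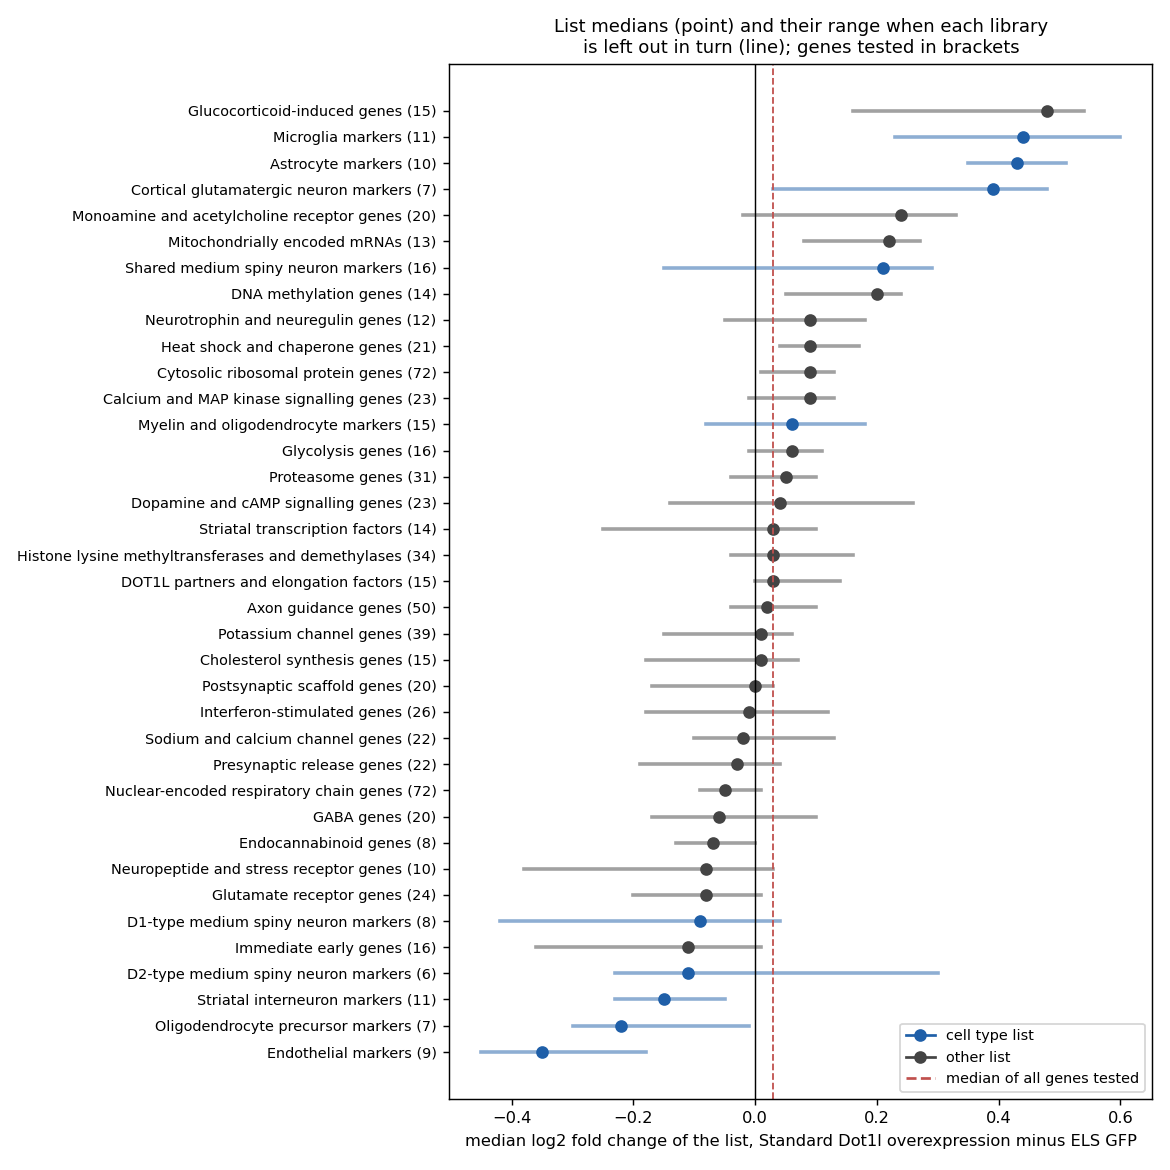
Median log2 fold change, overexpression minus ELS GFP, of the 37 lists with at least 5 genes tested, with the range found when each of the 16 libraries was left out; blue marks cell type lists and the dashed line the median of all genes. Astrocyte, microglia and glucocorticoid-induced genes lie farthest above 0 and endothelial genes farthest below it, while the lines of medium spiny neuron and most synaptic lists cross 0.

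Glucocorticoid-induced genes, which report action of stress hormone on its receptor, had the highest median of the lists with at least 5 genes tested. Of 15 tested genes 13 had a positive estimate and the median was 0.48, with 2 at an unadjusted p under 0.05 and none called. Replicate 4 of overexpression reached 4.65 mean log2 CPM, and the other 7 libraries lay from 2.82 to 3.50. ELS GFP lay from 2.72 to 3.09. Without replicate 4 the list had 11 of 15 positive estimates and a median of 0.16. Fkbp5, a co-chaperone of the glucocorticoid receptor, ran from 10.9 to 26 CPM, median 15.3, in ELS GFP. It ran from 7.70 to 122 CPM, median 17.2, with overexpression, and replicate 4 alone held the 122. The log2 fold change of 0.92 (SE 0.40, adjusted p = 0.62) was 0.09 without that library. Cebpd, a transcription factor, had 0.96 (SE 0.45) and 0.71 without it. Tsc22d3, also called Gilz, had 0.58 (SE 0.36) and 0.30, and the lipid droplet gene Plin4 had 1.44 (SE 1.04) and 0.52.

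Receptors for stress hormones overlapped between the groups. Nr3c1, the glucocorticoid receptor gene, had medians of 53.4 CPM in ELS GFP and 49.9 CPM with overexpression, with an estimate of -0.14 (SE 0.18, 95% interval -0.50 to 0.23). Nr3c2, the mineralocorticoid receptor gene, had medians of 108 and 106 CPM and an estimate of -0.52 (SE 0.29), which was -0.04 without ELS GFP replicate 2. Crhr1, receptor of corticotropin-releasing hormone, had medians of 12 and 10.6 CPM and -0.58 (SE 0.57), or -0.37 without ELS GFP replicate 5. The opioid receptor genes Oprd1 and Oprk1 had -0.60 (SE 0.45) and 0.84 (SE 0.81). They were -0.27 without ELS GFP replicate 4 and -0.26 without overexpression replicate 8, respectively. Over the 10 tested neuropeptide and stress receptor genes 4 were positive, with a median of -0.08, or 1 of 10 and -0.38 without replicate 8. Against Standard GFP the list lay at -0.38 in ELS GFP and -0.65 with overexpression. Without the 3 shallow Standard GFP libraries that order turned, to -0.58 and -0.34, and without Standard GFP replicate 8 the medians were -0.15 and -0.41.

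Activity-induced genes had more negative than positive estimates, and none was called. Of 16 immediate early genes 6 had a positive and 10 a negative estimate. The median was -0.11, or -0.34 with 5 of 16 positive without the 3 dominating libraries. The mean log2 CPM of the list overlapped between the groups, and 2 of 8 overexpression libraries lay above the ELS GFP median. Npas4, a neuronal activity factor, ran from 3.84 to 26.6 CPM, median 9.16, in ELS GFP and from 1.10 to 11 CPM, median 3.82, with overexpression. The estimate, on the log2 scale, was -0.97 (SE 0.45, unadjusted p = 0.036, adjusted p = 0.68). Nr4a3, a nuclear receptor induced by activity, lay below the ELS GFP median of 32.7 CPM in all 8 overexpression libraries, whose median was 25.1 CPM. Its estimate was -0.54 (SE 0.33). Fos had medians of 13.5 and 10.2 CPM with an estimate of 0.02 (SE 0.47), and Egr1 medians of 54.6 and 50.7 CPM with -0.11 (SE 0.33). Egr1 was -0.47 without overexpression replicate 1 and 0.11 without ELS GFP replicate 2. Dusp1, a phosphatase of MAP kinases, had 0.84 (SE 0.51), or 0.42 without overexpression replicate 4, and Btg2 -0.43 (SE 0.43). Bdnf, the neurotrophin, had medians of 5.70 and 5.77 CPM and 0.32 (SE 0.50), which was 0.09 without overexpression replicate 1.

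Synaptic lists stayed near the median of all genes. Glutamate receptor genes had 9 of 24 positive estimates (median -0.08), GABA genes 9 of 20 (-0.06), postsynaptic scaffold genes 10 of 20 (0.00) and presynaptic release genes 10 of 22 (-0.03). Without overexpression replicate 1 those medians were -0.20, -0.17, -0.17 and -0.19. Gria4, an AMPA receptor subunit, ran from 178 to 334 CPM, median 197, in ELS GFP. With overexpression it ran from 91.5 to 188 CPM, median 155, and all 8 libraries lay below the ELS GFP median. The ranges met between 178 and 188 CPM. The fitted log2 fold change was -0.52 (SE 0.22, unadjusted p = 0.0213, adjusted p = 0.585), and -0.60 without the 3 dominating libraries. Grm8, a metabotropic receptor, likewise had all 8 overexpression libraries below the ELS GFP median of 141 CPM, with -0.49 (SE 0.25).

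Several other synaptic estimates rested on a single library. Homer1, a postsynaptic scaffold, had -0.79 (SE 0.29) and -0.29 without that library. Dlg3, which encodes SAP102, had -0.57 (SE 0.33) and 0.06 without it. The release factor gene Unc13b had -0.93 (SE 0.47) and -0.13, and the GABA receptor subunit gene Gabrb1 -0.40 (SE 0.26) and -0.08. Abat, the enzyme that degrades GABA, had 0.65 (SE 0.36), which was 0.29 without overexpression replicate 1.

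Channels and receptors for other transmitters showed the same mixture. Potassium channel genes had 22 of 39 positive estimates (median 0.01) and sodium and calcium channel genes 10 of 22 (-0.02). Kcna4, a potassium channel, had -1.37 (SE 0.50) from ELS GFP replicate 2 at 276 CPM against a group median of 17.4 CPM, and 0.04 without it. Scn1a, a sodium channel, had -0.80 (SE 0.29) and -0.18 without the same library. Cacna2d2, a calcium channel subunit, had 0.86 (SE 0.39) and 0.27 without overexpression replicate 1. Of 20 monoamine and acetylcholine receptor genes 14 were positive, with a median of 0.24 that was -0.02 without overexpression replicate 1. Chrnb2, a nicotinic receptor subunit, lay above the ELS GFP median in 7 of 8 overexpression libraries, with medians of 7.38 and 12.2 CPM and 1.08 (SE 0.37, adjusted p = 0.402). Its estimate was 0.52 without the 3 dominating libraries. Htr2c, a serotonin receptor gene, had 0.42 (SE 0.34), and 0.26 without overexpression replicate 8.

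Signalling and guidance lists had medians near 0. Dopamine and cAMP signalling genes had 14 of 23 positive estimates (median 0.04), calcium and MAP kinase genes 18 of 23 (0.09), neurotrophin and neuregulin genes 7 of 12 (0.09) and endocannabinoid genes 3 of 8 (-0.07). Axon guidance genes had 27 of 50 (0.02) and striatal transcription factors 9 of 14 (0.03, and -0.25 without overexpression replicate 8). Among them Camk4 had 0.44 (SE 0.27), Camkk1, an upstream kinase, 0.47 (SE 0.30), the secreted neuropeptide precursor gene Vgf 0.46 (SE 0.35) and Gfra1, a GDNF receptor, 0.35 (SE 0.31). The estimates of Camk4 and Vgf were 0.05 and 0.09 without overexpression replicate 1, and that of Gfra1 was 0.22 without ELS GFP replicate 7. Faah and Abhd12, hydrolases of endocannabinoids, had -0.62 (SE 0.33) and 0.29 (SE 0.18), the latter 0.18 without overexpression replicate 8. The semaphorin gene Sema3c had 1.11 (SE 0.46), and 0.26 without overexpression replicate 1. Dlx5, a factor of GABAergic neurons, had -0.80 (SE 0.43), and Ikzf1, a zinc finger factor, 0.58 (SE 0.36), or 0.22 without overexpression replicate 1.

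Nearly every mitochondrially encoded mRNA had a positive estimate, with none at an unadjusted p under 0.05. Of 13 genes 12 had a positive estimate, the median was 0.22, and 7 of 8 overexpression libraries lay above the ELS GFP median of the list. Levels ran from 8.74 to 9.55 mean log2 CPM in ELS GFP, median 9.03, and from 8.99 to 9.85, median 9.35, with overexpression. mt-Nd1, a complex I subunit, had all 8 overexpression libraries (934 to 1990 CPM, median 1180) above the ELS GFP median of 931 CPM. ELS GFP ran from 672 to 1480 CPM, and the log2 fold change was 0.33 (SE 0.19, adjusted p = 0.857). mt-Nd5, mt-Atp6 and mt-Co2 each had 0.24, with SEs of 0.17, 0.17 and 0.19. All 13 genes had an interval within a log2 change of 1, so a larger difference lay outside their intervals. Without overexpression replicate 1 all 13 estimates were positive with a median of 0.08, and mt-Nd1, mt-Nd5 and mt-Co2 were 0.20, 0.14 and 0.09. These abundant transcripts share the mitochondrial genome and are not independent of each other.

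Nuclear genes for respiration did not follow. Of 72 tested genes 32 had a positive estimate, with a median of -0.05. Their widest values came from single libraries: Cox7c, a subunit of complex IV, had -2.39 (SE 0.73) with ELS GFP replicate 2 at 178 CPM against a group median of 4.38 CPM, and 0.19 without it. Ndufb8, of complex I, had -1.43 (SE 0.49) and -0.05 without it. Cytosolic ribosomal protein genes had 45 of 72 positive estimates with a median of 0.09, and 55 of 72 with 0.20 without the 3 dominating libraries. Rpl32 had 1.04 (SE 0.39) and Rps9 0.78 (SE 0.31), which were 0.07 and 0.34 without overexpression replicate 1.

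Metabolic, protein quality and immune response lists lay near 0. Glycolysis genes had 9 of 16 positive estimates (median 0.06), cholesterol synthesis genes 9 of 15 (0.01), heat shock and chaperone genes 14 of 21 (0.09), proteasome genes 16 of 31 (0.05) and interferon-stimulated genes 13 of 26 (-0.01). Pkm, pyruvate kinase, had 0.39 (SE 0.20), which was 0.24 without overexpression replicate 1 and 0.09 without the 3 dominating libraries. Fdft1, squalene synthase, and Nsdhl, a later enzyme of sterol synthesis, had 0.79 (SE 0.34) and -0.57 (SE 0.38). Fdft1 was 0.23 without overexpression replicate 1, and Nsdhl -0.33 without the 3 dominating libraries. The chaperone genes Dnajb1 and Dnaja1 had 1.63 (SE 0.55) and -1.01 (SE 0.34). They were 0.29 without overexpression replicate 1 and -0.26 without ELS GFP replicate 2, respectively. Isg15, a ubiquitin-like protein induced by interferon, had -1.99 (SE 0.65), and Psmb9, an immunoproteasome subunit, -1.68 (SE 0.63). They were 0.25 and 0.06 without ELS GFP replicate 2. Psmc5, a proteasome ATPase, had 0.81 (SE 0.34) and 0.16 without overexpression replicate 1.

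Other chromatin genes had medians near 0 or slightly above. Histone lysine methyltransferases and demethylases had 19 of 34 positive estimates (median 0.03), with 27 of the 34 intervals within a log2 change of 1. Kdm4b, a demethylase of H3 lysine 9, had medians of 25.7 CPM in ELS GFP and 32.1 CPM with overexpression and 0.51 (SE 0.24, adjusted p = 0.727), or 0.29 without overexpression replicate 2. Kmt2c, a methyltransferase of H3 lysine 4, had 0.32 (SE 0.17), or 0.09 without the 3 dominating libraries. DNA methylation genes had 10 of 14 positive estimates (median 0.20, and 0.05 without overexpression replicate 1). Mbd4, a repair glycosylase, had 1.29 (SE 0.58) and -0.15 without that library, and Uhrf1, a partner of DNMT1, -0.91 (SE 0.57). Of 4 nuclear noncoding RNAs 2 were positive (median -0.09), with Miat at -0.84 (SE 0.47). ELS GFP replicate 2 held 117 CPM of Miat against a group median of 26.3 CPM, and the estimate was -0.31 without it.

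Over all genes, the 10 per direction with the smallest unadjusted p were taken among those where no library held over 35% of the group's level and the higher mean was at least 5 CPM. Since p chose them, their values are a description. On the higher side these were Sox9, Neat1, Bcan, Rap1gap, Kcnip2, Mtmr2, Fgd6, Lzts3, Ewsr1 and Snrpc. Their adjusted p ran from 0.329 upward, and overexpression replicate 1 was the highest library in 8 of the 10. Neat1, the noncoding RNA of paraspeckles, ran from 15.9 to 45.2 CPM in ELS GFP and from 21.2 to 177 CPM with overexpression, with medians of 29.9 and 37.6 CPM and a log2 fold change of 1.17 (SE 0.33). Bcan, a proteoglycan of the perineuronal matrix made largely by glia, had medians of 43.6 and 54.5 CPM and 0.96 (SE 0.28). Rap1gap, which switches off the GTPase RAP1, had medians of 44.3 and 68.5 CPM and 0.88 (SE 0.27). The Kv4 channel partner Kcnip2 had 1.06 (SE 0.33), the phosphatase gene Mtmr2 0.96 (SE 0.30), the exchange factor gene Fgd6 0.89 (SE 0.28) and the synaptic gene Lzts3 0.81 (SE 0.27). Bcan was 0.44 and Kcnip2 0.70 without the 3 dominating libraries.

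Snrpc, a protein of the U1 splicing particle, changed little when any doubted library was left out. It ran from 0.915 to 5.82 CPM, median 3.54, in ELS GFP and from 4.84 to 10.2 CPM, median 8.53, with overexpression. All 8 overexpression libraries lay above the ELS GFP median. The log2 fold change of 1.05 (SE 0.35, adjusted p = 0.38) was 1.06 without the 3 dominating libraries. Ewsr1, an RNA-binding protein, had medians of 60.5 and 85.8 CPM, with 7 of 8 libraries above the ELS GFP median, and 0.61 (SE 0.20). Without the 3 libraries it was 0.33, and Sox9, Mtmr2, Fgd6 and Lzts3 were between 0.28 and 0.42.

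On the lower side the set was Efna5, Jakmip2, Zdhhc2, Uba3, Gbf1, Armc8, Psmc4, Sgsm1, Frmd6 and Wdr82. ELS GFP replicate 2 was the highest ELS library in 9 of the 10. Efna5, an ephrin that guides axons, ran from 50.3 to 251 CPM, median 65.3, in ELS GFP and from 28.3 to 58.6 CPM, median 46.9, with overexpression. All 8 overexpression libraries lay below the ELS GFP median. The estimate, on the log2 scale, of -0.95 (SE 0.28, adjusted p = 0.329) was -0.53 without ELS GFP replicate 2. Jakmip2, Zdhhc2, Gbf1, Armc8, Sgsm1 and Frmd6 also had all 8 overexpression libraries below the ELS GFP median. Their estimates were -0.72 (SE 0.23), -0.98 (SE 0.33), -0.68 (SE 0.24), -0.60 (SE 0.22), -0.54 (SE 0.20) and -0.65 (SE 0.25). Gbf1 and Armc8, which act in Golgi traffic and in a ubiquitin ligase complex, were -0.37 and -0.36 without ELS GFP replicate 2. Frmd6, an upstream member of the Hippo pathway, was -0.66. Uba3, an enzyme of neddylation, had -0.93 (SE 0.32), the proteasome ATPase gene Psmc4 -0.80 (SE 0.30) and Wdr82, part of a histone methyltransferase complex, -0.66 (SE 0.26). Without ELS GFP replicate 2, Jakmip2 was -0.40, Zdhhc2 -0.60, Sgsm1 -0.34, Psmc4 -0.50, Uba3 -0.70 and Wdr82 -0.46.

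Genes outside that rule had smaller p and were shaped by a single library. Ildr1 and Dusp5, chosen after their values were seen, were the only genes past the threshold in any fit of this contrast, by DESeq2. Ildr1, a junction protein, had medians of 0.833 CPM in ELS GFP and 3.08 CPM with overexpression, where 1 library reached 86.8 CPM (edgeR log2 fold change 3.66, adjusted p = 0.328). That library was overexpression replicate 2, without which the estimate was 1.70. Dusp5, a MAP kinase phosphatase, had medians of 12.7 and 4.21 CPM, and 1 ELS GFP library reached 149 CPM (-2.58, adjusted p = 0.328). Without that ELS GFP library, replicate 2, Dusp5 had an estimate of -1.35.

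**Figure D4:**
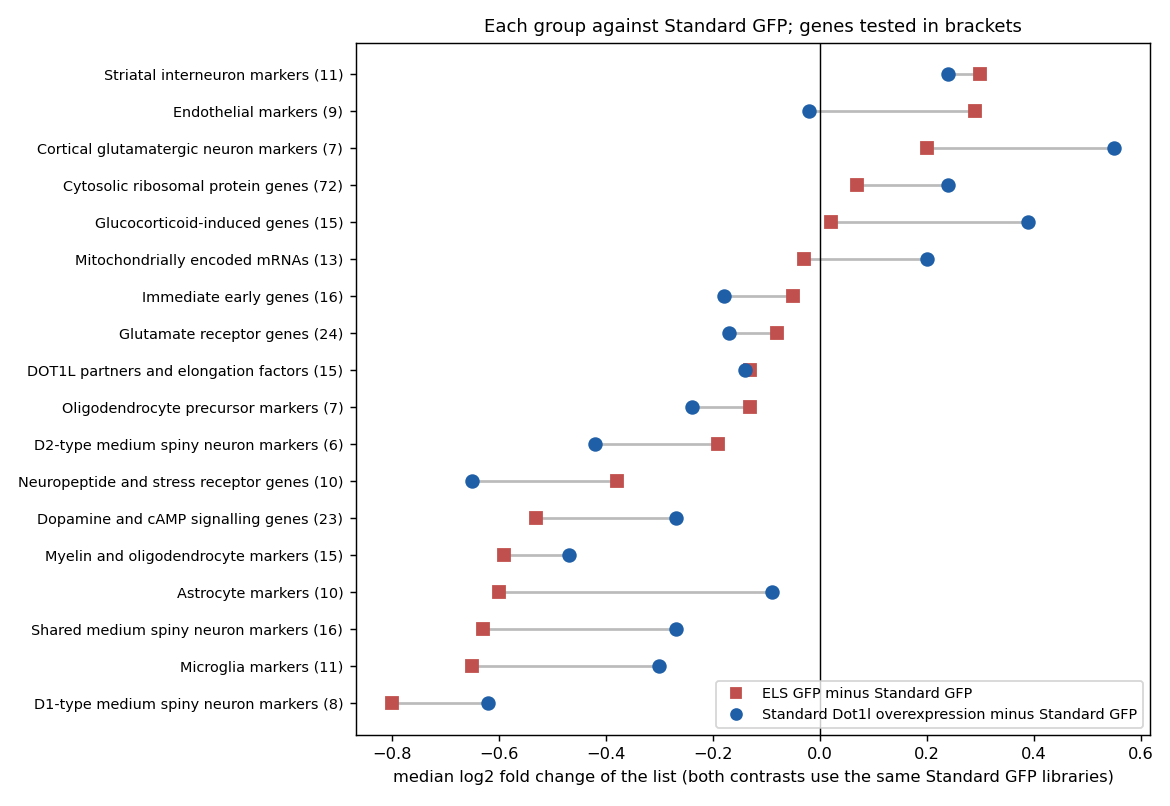
Median log2 fold change of 18 gene lists against Standard GFP, for ELS GFP (squares) and Standard Dot1l overexpression (circles); both contrasts share the 8 Standard GFP libraries. The median fold changes of both groups lie below 0 for medium spiny neuron, microglia and myelin lists. By mean log2 CPM per library, however, the microglia median with overexpression (5.69) was not below that of Standard GFP (5.57). The astrocyte list is at -0.60 in ELS GFP and -0.09 with overexpression.

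Set against Standard GFP, each group had 0 genes (0%) past the threshold by edgeR. At an unadjusted p under 0.05 there were 1524 genes of 14016 (10.9%) for overexpression and 1644 (11.7%) for ELS GFP. The direct contrast had 6.68%. DESeq2, fitted to the same 14016 genes, called 41 and 85. Because both contrasts use the same Standard GFP libraries, their values are only placed side by side. Medium spiny neuron lists had medians below 0 in both. The shared markers had lower estimates in 14 of 16 genes each, and D1-type markers in 6 of 8 each. The D1-type medians were -0.80 in ELS GFP and -0.62 with overexpression. D2-type markers had lower estimates in 4 of 6 genes in ELS GFP (median -0.19) and 5 of 6 with overexpression (-0.42). Without Standard GFP replicate 8 the D1-type medians were -0.32 and -0.36. Dopamine and cAMP signalling genes lay at -0.53 and -0.27, with 17 of 23 estimates below 0 in each, and at -0.37 and -0.11 without that library. Glucocorticoid-induced genes were at 0.02 in ELS GFP and 0.39 with overexpression, and mitochondrial mRNAs at -0.03 and 0.20. By edgeR without the 3 Standard GFP libraries under 1 M counts, overexpression had 32 genes past the threshold and ELS GFP 6. All were lower than in Standard GFP. Standard GFP replicate 6, which stayed in that fit, had the lowest scaling factor of its group (0.565). Over all 8 Standard GFP libraries it held, for example, 91% of the summed level of Neu4 and 71.7% of that of Crhr1. Its part in these calls and in the list medians against Standard GFP was not tested. The direct contrast still had 0.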

How the data were processed

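RNA counts of 32 libraries in 4 groups were used. Per the labels' protocols, whole-tissue RNA was extracted on columns, reverse transcribed and sequenced in pairs. The authors deposited raw counts per Ensembl gene, unnormalized. The submitters' processing notes name FastQC, HISAT2, featureCounts, DESeq2 and mm10, without versions. No source used here states whether strand was considered, so genes that overlap on opposite strands cannot be told apart. Symbols matched 52403 of 52636 IDs.

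Groups came from the labels. All libraries were fitted together with edgeR 4.0.16 (R 4.3.3): TMM, filterByExpr, robust quasi-likelihood test, 28 residual degrees of freedom, common biological coefficient of variation 0.566, Benjamini-Hochberg threshold 0.05. SEs are the absolute log2 fold change over the square root of F. List scores are mean log2 CPM with a prior count of 2. The test was also run on simulated counts, and no result above rests on that run. Alternatives used DESeq2 1.42.0, limma 3.58.1 and sva 3.50.0.

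Named genes were the 10 smallest p per direction under the limits given in the text, 18 genes of striatum, stress and DOT1L, and up to 4 members with the smallest p of each of 41 lists; for lists outside cell types, stress and DOT1L the first 2 are usually given. Some genes that the rule names are not reported here. The members, lists and rule were chosen with earlier results of these data known. H3K79me2 peak lists were not used, since none is labelled as overexpression.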

Additional observations from a re-analysis of the deposited data

Results flagged for a closer look

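In each group of 8 libraries the highest and lowest value were examined for a gap to the nearest other library that was large against the range of the group, in mean log2 CPM for 82 list groups and in log2 CPM for 256 gene groups. Of these 11 list groups and 47 gene groups had such a library. Chance flags about 1 in 20 groups, and genes share libraries, so these counts are not independent. The values in brackets are those of the library that stood apart. No cause was tested.

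ELS GFP replicate 2 was the highest of its group for the lists of shared medium spiny neuron markers (6.71), dopamine and cAMP signalling genes (6.37), glutamate receptor genes (7.29) and sodium and calcium channel genes (6.94). Jakmip2 (7.91), Gbf1 (7.30), Armc8 (6.67), Psmc4 (5.24), Wdr82 (5.74), Drd2 (9.30), Penk (8.02) and Ptpn5 (8.35) had ELS GFP replicate 2 as the highest library. Ugt8a (6.74), Olig1 (7.77), Nr3c2 (8.86), Gabrb1 (9.50), Homer1 (8.83), Dlg3 (8.07), Kcna4 (8.11) and Scn1a (8.38) also had this library as the highest. Cox7c (7.48), Ndufb8 (7.52), Isg15 (7.83), Psmb9 (7.0), Dnaja1 (7.65) and Dusp5 (7.22) also had this library as the highest. Overexpression replicate 1 was the highest of its group for the lists of postsynaptic scaffold genes (7.54) and potassium channel genes (6.21). Fgd6 (6.13), Egr1 (7.28), Neurod6 (6.21), Rpl32 (7.78), Rps9 (6.68), mt-Nd5 (11.70), Fdft1 (6.88) and Dnajb1 (6.76) had overexpression replicate 1 as the highest library. Psmc5 (6.43), Mllt10 (7.44) and Cdk9 (5.73) also had this library as the highest. Kdm2b (3.42) had overexpression replicate 1 as the lowest library. Overexpression replicate 8 was the highest of its group for the lists of D1-type medium spiny neuron markers (3.86) and shared medium spiny neuron markers (7.52). Drd1 (5.31), Scn4b (6.97), Fa2h (4.68) and Oprk1 (3.96) had overexpression replicate 8 as the highest library. Frmd6 (3.33) had overexpression replicate 8 as the lowest library. Overexpression replicate 4 was the highest of its group for the list of glucocorticoid-induced genes (4.65). Fkbp5 (6.93) had overexpression replicate 4 as the highest library. Olig1 (5.23) and Ildr1 (6.45) had overexpression replicate 2 as the highest library. Nr3c1 (6.40) had ELS GFP replicate 6 as the highest library. ELS GFP replicate 6 was the lowest of its group for the lists of cytosolic ribosomal protein genes (3.47) and heat shock and chaperone genes (4.02). Gja1 (3.68) and Vgf (3.20) had ELS GFP replicate 6 as the lowest library. Cacna2d2 (3.88) had ELS GFP replicate 4 as the lowest library. Snrpc (0.37) had ELS GFP replicate 7 as the lowest library.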

How the results depend on the processing

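The direct contrast had 0 genes past the threshold in every one of the 26 alternative fits with one exception, DESeq2, which called 2 (1 higher, 1 lower). DESeq2 called 41 genes for overexpression against Standard GFP (8 higher, 33 lower) and 85 for ELS GFP against Standard GFP (15 higher, 70 lower). By edgeR both of those contrasts had 0 genes past the threshold. Without the 3 shallow Standard GFP libraries, an alternative chosen after seeing the data, the edgeR fit called 32 and 6. Standard GFP replicate 6, which held much of the level of some genes in its group, remained in that fit. Of 14016 genes tested, those whose groups did not overlap numbered 0 to 5 when each library was left out (5 without overexpression replicate 1). Without the 3 dominating libraries, also chosen after seeing the data, they numbered 20, and none of these was called. With fewer libraries per group, more genes separate fully without any difference between the groups. Of 1107 list medians under alternatives 7 moved by more than 1 SD of the list's score between libraries. Lists with a wide score could change sign within that limit, as the shared medium spiny neuron markers (-0.15 without overexpression replicate 8) and D2-type markers (0.30 without ELS GFP replicate 2) did. Choroid plexus and ependyma genes had -0.19 in a fit of the 16 libraries alone and -0.23 to 0.61 with each library left out. Monoamine and acetylcholine receptor genes had -0.06 by limma voom with quality weights, 0 by the ratio of group medians and -0.02 to 0.33 with each library left out. Striatal transcription factors had -0.25 to 0.10 with each library left out, and cholesterol synthesis genes -0.23 without the 3 dominating libraries.

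Of 3453 fold changes of the 128 genes followed under alternatives, 67 changed sign and 2 passed the threshold, both by DESeq2. The log2 fold changes that changed sign were as follows. By limma voom they were Kdm2b 0.04, Pdyn -0.36, Mbp 0.04, Sfxn1 0.06, Ugt8a 0.07, Olig1 0.01 and Neurod6 -0.09. By DESeq2, run with its default handling of outlying counts, they were Olig1 0.42, Dlg3 0.07, Kcna4 0.03, Cox7c 0.19 and Isg15 0.24. The edgeR values of these genes without ELS GFP replicate 2 were close, at 0.39, 0.06, 0.04, 0.19 and 0.25. With surrogate variables they were Penk -0.11, Pdyn -0.59 and Fos -0.20, and with the number in the titles as a factor Pdyn -0.09. Without the 3 dominating libraries they were Kdm2b 0.04, Drd2 0.35, Mbp 0.07, Ptpn5 0.13, Neurod6 -0.14, Kcna4 0.03, Sema3c -0.01, Cox7c 0.31, Isg15 0.05, Psmb9 0.15, Mllt10 -0.02 and Mbd4 -0.27. By the ratio of group medians they were Adora2a -0.07, Pdyn -0.05, Pde10a -0.03, Fos -0.39, Kit 0.05, Mal -0.04, Dlg3 0.15, Cacna2d2 -0.02, Camk4 -0.17, Vgf -0.09, Cox7c 0.09 and Mllt10 -0.03. Ranges with each library left out crossed 0 for Drd2 (-1.18 to 0.57), Adora2a (-0.16 to 0.89), Penk (-0.35 to 0.97), Tac1 (-0.71 to 0.01), Pdyn (-0.61 to 0.28), Fos (-0.23 to 0.33), Egr1 (-0.47 to 0.11), Mbp (-0.36 to 0.03), Kit (-0.23 to 0.01), Olig1 (-2.38 to 0.39), Neurod6 (-0.07 to 1.42), Oprk1 (-0.26 to 1.51), Dlg3 (-0.67 to 0.06), Kcna4 (-1.63 to 0.04), Cox7c (-2.60 to 0.19), Isg15 (-2.29 to 0.25), Psmb9 (-1.97 to 0.06) and Mbd4 (-0.15 to 1.65). The cause of these changes was not tested. The titles carry numbers from 1 to 4, and the labels do not say what they mark. They are spread unevenly over the 2 groups. In ELS GFP only replicate 2 carries the number 2, and in overexpression replicates 1 and 2 do. Those are the 3 dominating libraries. With the title number as a block the direct contrast again had 0 genes past the threshold, and each contrast with Standard GFP had 0. At an unadjusted p under 0.05 the direct contrast had 534 genes, against 936 without the block. Deviations from the group means were compared between libraries of the 2 groups. Their correlation had a mean of 0.06 (-0.16 to 0.27) over the 14 pairs with the same number and -0.02 over the other 50 pairs. A mean over pairs cannot show an effect limited to 1 number. The main fit did not use the numbers. Depth limits genes of few counts most, and the shallow Standard GFP libraries limit every value set against that group.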
